A study of Homo sapiens with 4 samples.

Results

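Mitophagy receptors are proteins of the mitochondrial surface or inner membrane that carry a damaged or surplus mitochondrion to the autophagy machinery. The genes described here are 10 genes of this pathway and of the BCL2 family it is tied to: the receptors *BNIP3*, *BNIP3L*, *FUNDC1*, *FKBP8*, *PHB2* and *BCL2L13*, the kinase *PINK1*, and the antiapoptotic genes *BCL2*, *BCL2L1* and *MCL1*. They were chosen by name, and all 10 matched 1 gene each among the 58243 genes of the expression tables. *BNIP3* and *BNIP3L* were among the genes that the study picked as upregulated from its own samples, so their high level is not independent evidence of a response.

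The study examined HIF1α binding and transcription in HK2 cells, an immortalized line from human renal proximal tubule. The drug FG-4592, also named roxadustat, blocks the prolyl hydroxylases through which HIFα proteins are degraded. All 4 libraries came from cells given 50 μM FG-4592: 2 HIF1α ChIP-seq libraries, made with an antibody from Novus, and 2 RNA-seq libraries. The treatment before RNA-seq lasted 6 h, and the study's methods give the same condition for ChIP-seq. Untreated cells were not analysed here, so every expression value below is a level under FG-4592, not a change. Nothing in the labels says whether replicates were separate cultures, and the spread between them may be technical.

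The cell type was checked against marker genes. Expression is given as FPKM, the fragments assigned to a transcript scaled to its length and to the mapped fragments of the library. Of 12 proximal tubule markers, 3 reached a mean FPKM of 1 (*GGT1*, *MME* and *SLC5A2*), and *GGT1* was the most abundant, at 62.3 in replicate 1 and 58.5 in replicate 2. The endocytic receptor gene *LRP2*, the organic anion transporter genes *SLC22A6* and *SLC22A8*, and *HNF4A*, a transcription factor gene of the proximal tubule, were listed at 0 in both libraries. The 12 markers summed to an FPKM of 75.2 and 69.3. Epithelial markers reached 1 in 5 of 6 cases and summed to 489.5 and 467.0, led by *KRT19*. Mesenchymal markers did so in 3 of 4 and summed to 1397 and 904.7, led by *VIM*. The 3 markers of the loop of Henle and collecting duct and both endothelial markers were listed at 0. Of the leukocyte markers, *PTPRC* was listed at 0 and *CD68* had 33.6 and 31.5. Since most proximal tubule markers were below 1 and 4 of the 12 were at 0, the cells are called HK2 cells throughout.

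The ChIP-seq replicates stood apart. Replicate 1 held 1689 peaks and replicate 2 held 16953, of which 344 and 332 overlapped a peak of the other replicate. Annotated exons made up 32.9% of the peak bases of replicate 1 and 84.5% of those of replicate 2. Results on peaks are therefore given for each replicate on its own before any count over both. The peak lists give positions only, with no height or score, and how deeply these libraries were sequenced is unknown. For the RNA-seq, transcript coverage times length came to 4442 Mb for replicate 1 and 4202 Mb for replicate 2.

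Mitophagy has a ubiquitin route and a receptor route. In the first, PINK1 accumulates on depolarized mitochondria and phosphorylates ubiquitin on their surface. In the second, receptors bind proteins of the ATG8 family directly through a short interaction motif, and *BNIP3* and *BNIP3L* are long-known targets of HIF1. BNIP3 and its homologue BNIP3L (NIX) also carry a BH3-like region and were first found as partners of BCL2 proteins.

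The DNA just upstream of *BNIP3* is shown because it lies under a peak in both ChIP-seq replicates, and that of *PINK1* because it holds the same letters with no peak. Capitals mark the core of the hypoxia response element, ACGTG or GCGTG read on either strand. Where CACGTG occurs, the core is read once on each strand. Both windows are 300 bases of GRCh37 written on the strand of the gene, and hold no exon annotated in GENCODE 44. They end next to the outermost start of the gene in either GENCODE 27 or GENCODE 44. For both genes that start is the GENCODE 27 one, which extends the first exon of *BNIP3-201* by 90 bases and that of *PINK1-201* by 3, so the windows do not touch the GENCODE 44 gene ends. The *BNIP3* window is chr10:133795518-133795817 (minus strand) and the *PINK1* window is chr1:20959648-20959947 (plus strand).
BNIP3: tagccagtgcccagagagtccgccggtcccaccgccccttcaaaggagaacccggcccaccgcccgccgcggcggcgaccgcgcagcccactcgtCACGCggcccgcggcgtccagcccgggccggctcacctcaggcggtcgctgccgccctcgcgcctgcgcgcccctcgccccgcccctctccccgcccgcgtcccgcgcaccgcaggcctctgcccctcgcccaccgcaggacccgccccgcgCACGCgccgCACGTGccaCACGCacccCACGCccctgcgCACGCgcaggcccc
PINK1: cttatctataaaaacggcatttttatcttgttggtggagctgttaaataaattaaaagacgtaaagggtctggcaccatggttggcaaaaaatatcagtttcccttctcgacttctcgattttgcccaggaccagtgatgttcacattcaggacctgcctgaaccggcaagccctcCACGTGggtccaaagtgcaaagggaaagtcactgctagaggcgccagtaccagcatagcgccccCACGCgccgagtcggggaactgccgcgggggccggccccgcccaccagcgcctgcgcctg

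The *BNIP3* window holds 7 cores and the *PINK1* window holds 3. Of windows of this length that end at the 5′ end of 11726 protein-coding genes whose mean FPKM reached 1, 60.4% hold at least 1 core, 13.9% hold at least 3 and 0.443% hold at least 7. G and C make up 81.0% of the *BNIP3* window and 54.7% of the *PINK1* window. The replicate 1 peak covers all 300 bases of the *BNIP3* window, and the replicate 2 peak covers 223 of them. A match of letters describes the sequence and is no evidence of binding.

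All 10 genes were expressed. Each had a mean FPKM of at least 1, against 23.1% of all genes in the tables and 59.7% of 19658 protein-coding genes in both annotations, and their median was 66.3, against 9.25 over the 13467 genes that reached 1. The values below are FPKM summed over the transcripts of a gene, a scale that corrects for length and so allows levels of different genes to be compared.

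*BNIP3* was the highest of the receptors and of all 10 genes. Its FPKM was 279.9 and 297.4 in RNA-seq replicates 1 and 2, with a mean and SD of 288.7 ± 12.4 over n = 2 libraries. It ranked 145 among the 58243 genes. *BNIP3L* had 63.5 and 70.0 (66.8 ± 4.59). The ratio of *BNIP3* to *BNIP3L* was 4.41 in replicate 1 and 4.25 in replicate 2, so the libraries differed far less than the genes did. *BNIP3* alone held 49.2% and 51.1% of the FPKM summed over the 6 receptors.

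Related and overlapping genes bear on these levels. *BNIP3* has 38 annotated pseudogene copies, among which the estimate could divide reads, and 9 were above 0. The highest, *BNIP3P1*, had an FPKM of 5.65 and 5.54, and all copies together came to 2.22% of the level of *BNIP3*. *BNIP3L* shares 330 exon bases with *PNMA2* on the opposite strand, which had an FPKM of 7.51 and 7.04.

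*FKBP8* encodes a tail-anchored immunophilin of the outer mitochondrial membrane that binds LC3. Its FPKM was 110.7 in replicate 1 and 94.1 in replicate 2 (102.4 ± 11.8), the highest of the receptors after *BNIP3*. *PHB2* encodes prohibitin 2, an inner-membrane receptor that is exposed when the outer membrane ruptures, and had 90.3 and 85.2 (87.7 ± 3.65). In neither library did the value of *FKBP8* fall below that of *PHB2*, and their ranges did not overlap.

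The remaining receptors were lower. *BCL2L13*, the mammalian counterpart of the yeast receptor Atg32, had an FPKM of 17.4 and 23.0 (20.2 ± 3.96). *FUNDC1*, an outer-membrane receptor controlled by phosphorylation, had 7.05 in replicate 1 and 12.5 in replicate 2 (9.76 ± 3.83). It was the 1 gene of the 10 over 1.5-fold apart between the libraries, at 1.77-fold, against 7.02% of all genes that reached a mean FPKM of 1. On the log2 scale with a pseudocount of 1, *FUNDC1* was 0.74 higher in replicate 2 and *BCL2L13* 0.38 higher. The median absolute difference was 0.09 over the 10 genes and 0.13 over all genes that reached 1.

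*PINK1*, the kinase of the ubiquitin route, had an FPKM of 20.8 and 20.6 (20.7 ± 0.186). Its exons share 1907 bases with *PINK1-AS*, an antisense gene listed at 4.79 and 5.21. The tables do not state that strand was used, so reads of the pair cannot be told apart with certainty.

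Among the antiapoptotic genes, *BCL2L1*, which encodes BCL-xL, was the highest, and its FPKM in the replicates was 85.3 and 81.2 (83.2 ± 2.89). *MCL1*, whose protein turns over quickly, had 65.2 and 66.5 (65.8 ± 0.925). *BCL2* was the lowest of the 10 genes, with 6.14 and 6.43 (6.28 ± 0.204). *BCL2L1* was 13.9 and 12.6 times and *MCL1* 10.6 and 10.3 times as high as *BCL2* in the replicates. *BCL2L1* shares 1735 exon bases with the antisense gene *ABALON*, listed at 13.0 and 9.82.

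In descending order of mean FPKM the genes were *BNIP3*, *FKBP8*, *PHB2*, *BCL2L1*, *BNIP3L*, *MCL1*, *PINK1*, *BCL2L13*, *FUNDC1* and *BCL2*. The ranges over libraries overlapped for 3 pairs of neighbours. *BNIP3L* and *MCL1*, and *PINK1* and *BCL2L13*, did not differ beyond their spread and changed places between the libraries. *PHB2* exceeded *BCL2L1* in each library, with a difference of 4.54 between the means and a larger SD of 3.65, although the value of *PHB2* in replicate 2 lay just under that of *BCL2L1* in replicate 1. *FUNDC1* exceeded *BCL2* in both libraries, but by 3.48, less than the SD of *FUNDC1*. The order depends on which transcripts are summed. With protein-coding transcripts only, the mean FPKM of *PHB2* was 64.0, below *BCL2L1* (83.2) and *BNIP3L* (66.1), and that of *BCL2L13* was 8.64, below *FUNDC1* (9.11). With only the largest transcript of each gene in each library, *BNIP3L* (65.6) and *MCL1* (62.2) came before *FKBP8* (55.7), *PHB2* (55.2) and *BCL2L1* (43.7). For *BCL2L1* that transcript was *BCL2L1-201* in replicate 1 and *BCL2L1-203* in replicate 2. In the same setting *FUNDC1* (9.11) came before *BCL2L13* (7.38). *BNIP3* was highest and *BCL2* lowest in both settings.

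**Figure D1:**
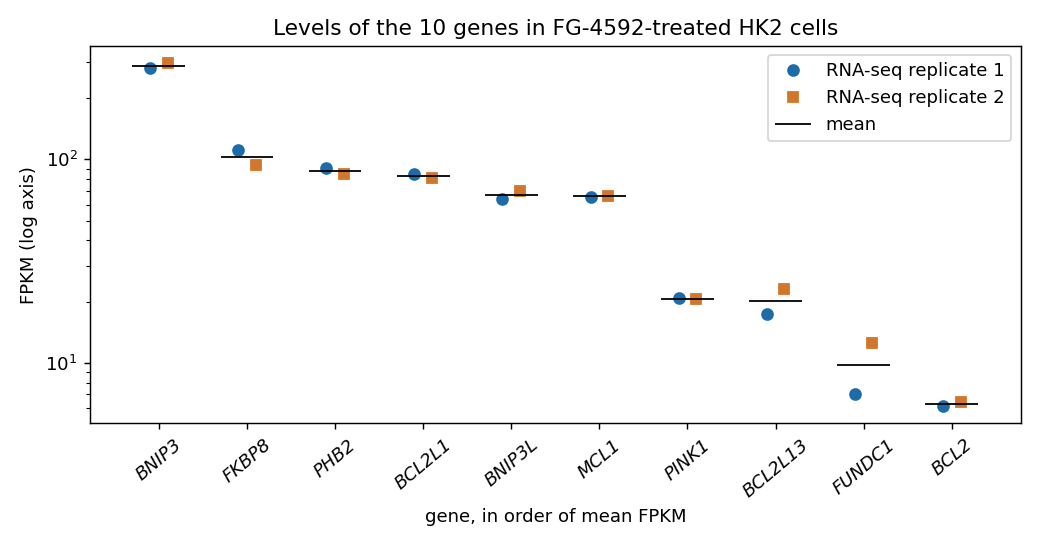
FPKM of the 10 genes on a log axis, with a circle for RNA-seq replicate 1, a square for replicate 2 and a line at their mean. *BNIP3* lies above the rest at 279.9 and 297.4, and *FUNDC1* shows the widest gap between libraries, 7.05 and 12.5.

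Transcript shares divided the genes into those with 1 dominant transcript and those spread over several. A share is the part of a gene's FPKM that a transcript holds in a library, and the leading transcript of a library is the one with the highest share in it. Coding lengths are those of the GENCODE 44 model, given where its splice chain equals that of the GENCODE 27 model in the tables, as for 70 of 78 transcripts of the 10 genes. The median leading share was 68.7% over the 10 genes and 61.6% over 11893 genes that had more than 1 transcript, reached a mean FPKM of 1 and were above 0 in both libraries.

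For 4 of the 10 genes the same transcript held over 90% in both libraries, against 12.9% of the 11893 genes, with a limit chosen after the values were seen. *BNIP3L-201*, which encodes 219 codons, held 98.3% in replicate 1 and 98.1% in replicate 2. *PINK1-201* (581 codons) held 96.5% and 98.1%, and *MCL1-202* (350 codons), the long antiapoptotic form, held 94.7% and 94.4%. *FUNDC1-201* (155 codons) held 92.4% and 93.9%, so the gap between libraries in the level of *FUNDC1* came with nearly the same makeup. A shorter *MCL1* form of 271 codons held 2.02% and 2.65%.

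*BNIP3* was divided between 2 coding transcripts in the same way in both libraries. *BNIP3-201* (194 codons) held 70.7% and 72.5%, and *BNIP3-202* (180 codons) held 24.1% and 21.8%. The FPKM of *BNIP3-202* alone was 67.4 and 64.8, as high as the whole of *BNIP3L* to within the spread of the libraries. Transcripts with no coding sequence held 4.96% and 5.25%.

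*FKBP8* and *PHB2* were more mixed. *FKBP8-213* (413 codons) held 57.3% and 51.1%. The 412-codon form, made by *FKBP8-206* and *FKBP8-201*, held 20.7% in replicate 1 and 35.0% in replicate 2. *PHB2-203* (299 codons) held 64.8% and 60.9%. Transcripts of *PHB2* with no coding sequence held 23.6% and 25.6%, with the retained-intron transcript *PHB2-205* at 15.4% and 14.4%. Outside protein-coding transcripts altogether lay 26.1% and 28.2% of *PHB2*, against a median of 11.2% over 11094 protein-coding genes. *PHB2* also holds the small RNA gene *SCARNA12* within its exons, on the same strand and over 270 shared bases.

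*BCL2L13* was the 1 gene of the 10 led by a transcript annotated for nonsense-mediated decay, against 3.27% of 11094 protein-coding genes. *BCL2L13-212* held 25.3% in replicate 1 and 45.0% in replicate 2, and together with *BCL2L13-204* of the same class 39.5% and 56.3%. The non-coding *BCL2L13-210* held 11.6% and 4.65%. The most abundant complete coding form, of 201 codons and made mainly by *BCL2L13-211*, held 19.8% and 18.5%. The longer form of 485 codons held 5.02% and 4.72%, and that of 509 codons held 4.55% and 3.68%. Non-coding and decay transcripts together made up 52.0% and 61.2%, higher than in 91.8% of protein-coding genes. These classes come from the annotation, and the tables hold no measure of decay or of protein.

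*BCL2L1* was the only one of the 10 genes whose leading transcript differed between the libraries, against 22.7% of genes with more than 1 transcript. *BCL2L1-201* led replicate 1 with 54.5% and held 18.7% of replicate 2, and *BCL2L1-203* held 18.1% of replicate 1 and led replicate 2 with 50.3%. Both encode the same 233 codons of BCL-xL, so the shares of that form were close, at 72.6% and 69.0%. *BCL2L1-202*, of 170 codons, the length of the short proapoptotic form BCL-xS, held 5.39% and 15.7%. *BCL2L1-205* held 16.1% and 10.1%, and its GENCODE 44 model also has 170 codons but differs from that of GENCODE 27. The total share of the short form, and whether it differed between the libraries, is therefore uncertain. With *BCL2L1-205*, 6 transcripts had models that differ between the annotations, and they held 22.0% and 15.2% together. In total 43.1 percentage points of the FPKM of *BCL2L1* sat on different transcripts in the 2 libraries, against a median of 13.5 over all such genes and 2.88 over the 10 genes.

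*BCL2* was stable by comparison. The form of 239 codons, made by *BCL2-202* and *BCL2-201*, held 84.6% and 81.6%, and the form of 205 codons made by *BCL2-203* held 15.4% and 16.0%.

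**Figure D2:**
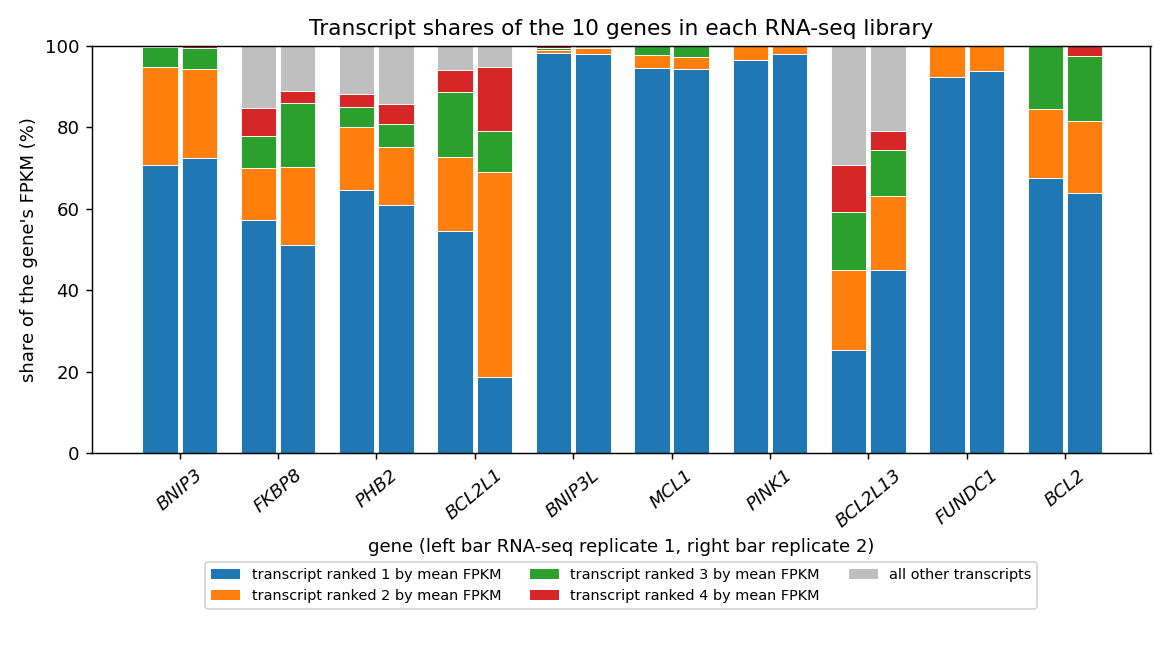
Share of each gene's FPKM by transcript, in percent, with RNA-seq replicate 1 on the left and replicate 2 on the right of each pair of bars. Colours rank the transcripts by mean FPKM, and grey is the rest. The leading transcripts of *BCL2L1* change places between the bars (54.5% and 18.7% for the transcript of rank 1), while *BNIP3L*, *MCL1*, *PINK1* and *FUNDC1* are nearly a single colour.

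A promoter peak was a HIF1α peak within 1 kb of any annotated start site, on GRCh37. In replicate 1, 2 of the 10 genes had one, *BNIP3* and *BNIP3L*. The share was 2.50% over 55859 genes in both annotations and 8.60% over the 11726 protein-coding genes that reached a mean FPKM of 1. In replicate 2, 5 of the 10 had one, *BNIP3*, *BNIP3L*, *FKBP8*, *BCL2L1* and *MCL1*, against 9.72% and 20.0%. In both replicates there were 2, *BNIP3* and *BNIP3L*, against 0.779% and 2.87%. Without replicate 2 the count is the 2 of replicate 1, the same genes. With the 5′ end of the gene as the only start site, replicate 2 had 3, without *FKBP8* and *BCL2L1*. With peaks free of exon bases only, the count was 0 in each replicate and in both. The genes were picked with binding results known, so the counts describe them and support no claim of enrichment.

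*BNIP3* (ENSG00000176171, chr10:133781188-133795471, minus strand) had a replicate 1 peak at chr10:133795222-133795859 and a replicate 2 peak at chr10:133795359-133795740. Both span its start site, and their centres lie at -113 and -122 bp from the start of *BNIP3-201*, which is upstream. The replicate 2 peak lies wholly within that of replicate 1 and covers 59.9% of it, with centres 9 bp apart. Both hold the same 7 cores, 6 of them within 100 bp of each centre and the nearest 1 bp away. Of the 1661 replicate 1 peaks on the chromosomes searched, 89.3% hold a core and 5.66% hold at least 7. Of 16648 such peaks in replicate 2 the shares are 48.8% and 1.94%.

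*BNIP3L* (ENSG00000104765, chr8:26240570-26363152, plus strand) had its promoter peaks inside the gene. They lie at chr8:26240892-26241486 in replicate 1 and chr8:26240995-26241419 in replicate 2, centred in intron 1 of *BNIP3L-201*, 619 and 637 bp downstream of its start. The replicate 2 peak again lies wholly within that of replicate 1, and both hold the same 6 cores, the nearest 8 and 10 bp from the centres. The 300 bases upstream of the start hold 4 cores and no peak. A further replicate 1 peak without exon bases lies at chr8:26308653-26309013, in the longest annotated extent of the gene but downstream of *BNIP3L-201*, and holds 1 core, 17 bp from its centre. Replicate 2 has no peak there.

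The other 8 genes had no replicate 1 peak in the gene or within 1 kb of it, so that 2 of the 10 had one, against 10.4% of the 11726 protein-coding genes. For *FKBP8* the nearest was 13578 bp from a start site, closest to the start of *KXD1*, and for *PHB2* it was 52915 bp away, closest to that of *ENO2*. For the rest the distance ran from 110699 bp for *BCL2L1* to 3115934 bp for *FUNDC1*. Upstream of the leading transcripts, *PINK1* held 3 cores and *BCL2L1* held 1 in 300 bases, and the other 6 of these genes held none. Over 11452 promoters of leading transcripts, 62.9% held a core, and 10.2% of those had a replicate 1 promoter peak.

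Replicate 2 added peaks of another kind. It had 23 peaks at or within 1 kb of 8 of the 10 genes, where 55.6% of the 11726 protein-coding genes had at least 1. Of the 23, 2 overlapped a peak of replicate 1, against 332 of all 16953 peaks of replicate 2. These 2 lie at the promoters of *BNIP3* and *BNIP3L*. Of the 23, 15 lay outside promoters. All 15 had most of their bases in exons and 10 were centred in the 3′ untranslated region of the leading transcript. Over all 9454 such peaks at the 11726 genes the shares were 95.6% and 51.7%, so these places are common to replicate 2 as a whole. On *BNIP3L* these were chr8:26267897-26268780, chr8:26268994-26269395 and chr8:26269646-26270490, all in exon 6. *FUNDC1* had a single peak, chrX:44383213-44383439, in the 3′ untranslated region of exon 5.

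The promoter peaks of the other 3 genes of replicate 2 were exonic as well. On *MCL1* (chr1:150533371-150552214, minus strand) the peaks chr1:150551333-150552055, chr1:150550703-150550969 and chr1:150547190-150549953 are centred in coding exons 1 and 2 and in the 3′ untranslated part of exon 3. All their bases lie in exons, and the last counts as a promoter peak only through a start site annotated 162 bp from its edge, downstream in the gene. On *BCL2L1* the peak chr20:30309473-30310102 is centred in coding exon 2, and its nearest start site is that of *ABALON*. On *FKBP8* the peaks chr19:18649033-18649269 and chr19:18652478-18652869 are centred in coding exons 5 and 2.

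**Figure D3:**
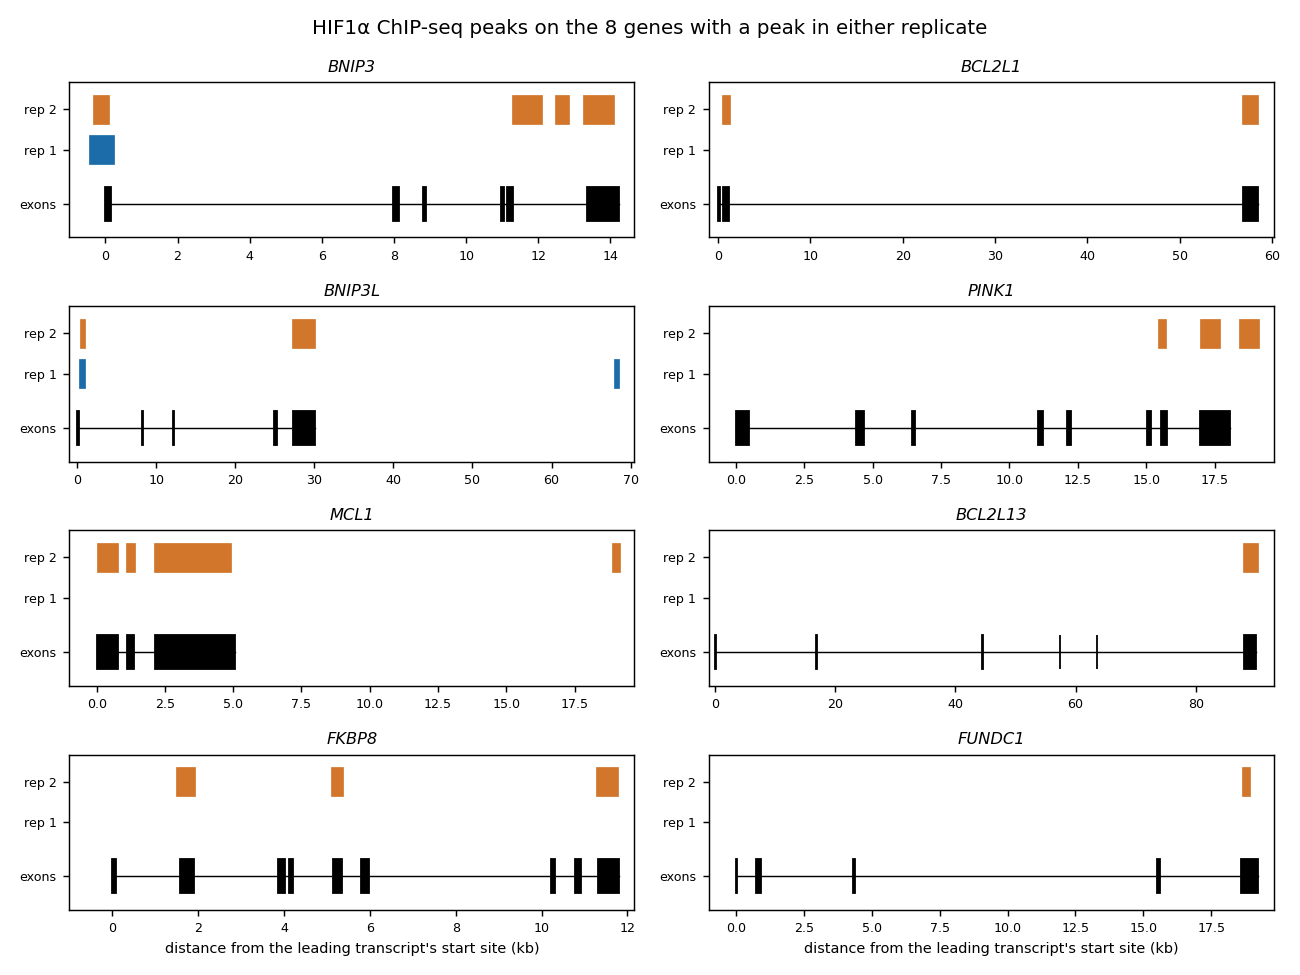
HIF1α peaks of replicate 1 (blue) and replicate 2 (orange) on the 8 genes with a peak in either replicate, by distance in kb from the start site of the leading transcript, with its exons in black. Replicate 1 marks only *BNIP3* and *BNIP3L*, and of the 15 replicate 2 peaks outside promoters 10 are centred in the 3′ untranslated region drawn. Another 1, on *PINK1*, is centred in a coding exon drawn, and the others fall on exons of other transcripts or genes that are not drawn.

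The exon bases under replicate 2 peaks rose with expression across all protein-coding genes. Outside promoters, such peaks covered 2.07% of exon bases in genes listed at 0, 6.17% in genes whose mean FPKM was from 1 to 10, 16.3% in genes whose mean FPKM was from 10 to 50, 24.6% from 50 to 100 and 28.5% above 100. In replicate 1 no range exceeded 0.0312%. The share lay above the pooled share of the range for 1 of 2 of the genes from 1 to 10, 2 of 2 from 10 to 50, 3 of 4 from 50 to 100 and 2 of 2 above 100. Over all genes of these ranges it did so for 24.7%, 40.2%, 47.8% and 48.4%, so a share above the pooled one is not particular to the 10 genes. The 8 genes were *BCL2L1* at 77.4%, *MCL1* at 64.6%, *BNIP3L* at 62.5%, *FKBP8* at 58.9%, *BNIP3* at 49.0%, *PINK1* at 33.1%, *BCL2L13* at 32.3% and *FUNDC1* with 227 of 842 bases. Of the genes in the same range, the part with a lower share went from 72.0% for *BNIP3* to 94.1% for *BCL2L1*. *PHB2* and *BCL2* had none, although *PHB2* had a mean FPKM of 87.7 and 73.4% of the 580 genes of its range had some. What gave rise to the exonic peaks was not tested.

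**Figure D4:**
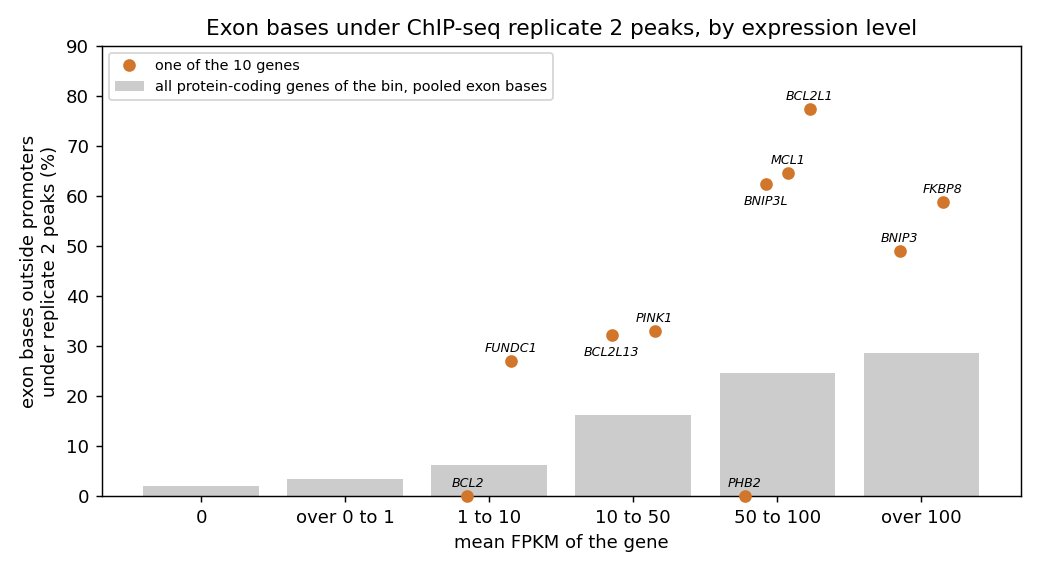
Percent of exon bases outside promoters that lie under ChIP-seq replicate 2 peaks, by mean FPKM of the gene. Bars pool all protein-coding genes of a range with at least 500 such bases, and points are the 10 genes. The bars rise from 2.07% to 28.5%, with *BCL2L1* highest at 77.4% and *PHB2* and *BCL2* at 0.

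Other genes of the same pathways were taken from lists by name. All 21 genes matched for the ubiquitin route reached a mean FPKM of 1, and their median was 20.4. The autophagy receptor gene *SQSTM1* was highest, with 219.5 in replicate 1 and 158.1 in replicate 2, followed by *VDAC1*, a channel of the outer membrane, with 135.7 and 146.1, and the import receptor gene *TOMM20*, with 77.6 and 84.4. Promoter peaks lay at 3 of the 21 in replicate 1, the kinase gene *TBK1*, *TOMM20* and *VDAC1*, at 7 in replicate 2 and at 2 in both. Over all protein-coding genes that reached a mean FPKM of 1 the shares were 8.60%, 20.0% and 2.87%, beside which the counts of the lists below are also to be read.

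Of the 12 genes of the ATG8 family and of initiation, 10 reached 1, with a median of 17.5 over the list and *MAP1LC3B*, which encodes LC3B, highest at 63.5 and 63.6. Its relatives *GABARAPL2* and *GABARAP* followed, with a mean FPKM of 41.2 and 39.9. *BECN1*, which encodes Beclin 1, a partner of BCL2, was the 1 gene of the 12 with a promoter peak in replicate 1, and 1 of 5 in replicate 2, with *GABARAP* and, chosen for naming after their values were seen like *SRC* and *BMF* of the next lists, *GABARAPL1*, *ULK1* and *ATG13*. All 14 regulators of receptors and of fission reached 1, with a median of 30.9. *RHEB*, which encodes a GTPase that binds BNIP3 and BNIP3L, led them with 78.5 and 96.3 and was the 1 gene of the 14 with a replicate 1 promoter peak. In replicate 2 the kinase gene *SRC* was the 1 such gene, and none had a peak in both. The prohibitin gene *PHB*, a partner of *PHB2*, and *CSNK2B*, a subunit gene of casein kinase 2, followed with a mean FPKM of 60.6 and 58.8. Of 18 other BCL2 family genes, 14 reached 1, the median was 7.49, and *BCL2L10* and *BCL2L14* were listed at 0 in both libraries. *BOK* and *BAX*, which encode pore-forming members, were highest, at 53.3 and 48.7 and at 50.5 and 49.8. *BID*, which encodes a BH3-only activator, came next, at 26.4 and 26.2. *BCL2L2*, which encodes the antiapoptotic BCL-w, was the 1 gene of the 18 with a promoter peak in replicate 1, and 1 of 2 in replicate 2, with the BH3-only gene *BMF*. Last, 10 known HIF1 targets other than *BNIP3* and *BNIP3L* were read in the same way, led by *NDRG1*, *SLC2A1* and *P4HA1* with a mean FPKM of 210.0, 189.7 and 112.2. Replicate 1 had a promoter peak at 7 of them, *CA9*, *PDK1*, *VEGFA*, *KDM3A*, *ANKRD37*, *P4HA1* and *SLC2A1*, against the 8.60% of all such genes. Replicate 2 had one at 6, against 20.0%, and 5 had one in each, against 2.87%. The list was chosen as known targets with results of these data known, so nothing is read from these shares.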

How the data were processed

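HK2 cells given 50 μM FG-4592 were measured by HIF1α ChIP-seq, deposited as 2 lists of peaks, and by RNA-seq, deposited as 2 tables, and groups and replicate numbers came from the sample labels. Per the labels and the study's methods, the authors aligned ChIP-seq reads with Bowtie2 and called peaks with MACS2 for each replicate, mapped RNA-seq reads with HISAT2, and estimated transcripts with StringTie. The submitters' processing notes also list cutadapt. The deposited tables hold coverage, FPKM and TPM for each transcript, and their header names StringTie 1.3.3 and GENCODE 27. The peak caller's threshold and control are not given in the sources used here. The study's methods name hg19 for the RNA-seq mapping, but the coordinates of the deposited expression tables are those of GRCh38. The peaks use GRCh37, so tables and peaks were joined by Ensembl gene identifier, and no position was converted. Peaks and sequence were read against GRCh37 with GENCODE 44 mapped to it. For the 2 printed windows only, the start was moved outward by the bases by which the first exon is longer in GENCODE 27.

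FPKM was summed over transcripts. A transcript was matched between annotations when introns and inner exons had equal lengths and the end exons could hold the coding sequence, a rule set after seeing the data. No test was run: all libraries share 1 condition, with 2 libraries per assay, and the tables hold no read counts. Cores were searched on the chromosomes of the genome file other than the mitochondrial one, and peaks elsewhere were left out of that count. Copies of genes in the Y chromosome's pseudoautosomal region were left out. Members and lists were chosen with earlier results of these data known. Named genes were the 10 members, transcripts with at least 10% of a member's FPKM in either library, the highest pseudogene copy, genes nearest a member's peak, and of each list those with a replicate 1 promoter peak, the 3 highest and those listed at 0. Outside this rule, marker genes and some of the genes that share exon bases with a member were named as well. Of the 22 genes read for the ubiquitin route, 21 were matched by symbol. Alternatives covered the unit, the transcripts summed, pseudogene copies, the minimum FPKM, the pseudocount, promoter windows and start sites, the peak set, the window for the core and leaving out each replicate. The code was tested on simulated data. Software was Python 3.11.15, numpy 2.4.6, pandas 2.3.3, pysam 0.24.0, matplotlib 3.10.9 and samtools 1.23.1.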

Additional observations from a re-analysis of the deposited data

How the results depend on the processing

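No paired analysis was possible because all libraries share 1 condition and no result comes from a test. All 10 genes reached 1 with TPM in place of FPKM and with either RNA-seq library left out (10 to 10). All 10 also reached a minimum FPKM of 0.1 and of 5, and 8 reached 10. The ratio of *BNIP3* to *BNIP3L* was 4.32, 3.15 with the largest transcript of each gene only, 4.15 with protein-coding transcripts only, and 4.25 to 4.41 with either library left out.

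The 2 genes with a replicate 1 promoter peak were the same with windows of 500 bp, 3 kb and 10 kb and with either choice of start sites. With peaks free of exon bases only, the count was 0 in replicate 1, 0 in replicate 2 and 0 in both, since the promoter peaks of *BNIP3* and *BNIP3L* touch exons too. A window of 10 kb gave 6 genes in replicate 2. The 5 genes of replicate 2 became 3 with the 5′ end of the gene only and 2 with peaks that overlap replicate 1. Leaving out either ChIP-seq replicate gave 2 to 5 genes in place of the 2 with a peak in both. Of the 8 promoter peaks of replicate 2 at these genes, 5 held a core, and 3 held one within 100 bp of the centre. Over all 16648 replicate 2 peaks searched the shares were 48.8% and 27.1%. Beyond what each setting leaves out by construction, the cause was not tested.

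Adding pseudogene copies could move only *BNIP3*, since no other gene of the 10 had a copy above 0. Its mean FPKM went from 288.7 to 295.1, within 1 SD. The largest transcript in each library alone moved 8 of 10 mean FPKM values by more than 1 SD, and protein-coding transcripts alone moved 5. Both settings changed the order of the genes: *PHB2*, with 87.7, had 55.2 and 64.0, and *BCL2L13*, with 20.2, had 7.38 and 8.64, below the 9.11 of *FUNDC1* in each. Weighting transcripts by bases of coverage moved 7 of the 10 leading shares by more than 1 SD. With 2 libraries an SD is imprecise, and the sequencing depth of the ChIP-seq is not given.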
